A study of Homo sapiens with 16 samples.

Results

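A set of 10 genes of epithelial junctions and epithelial splicing were followed through 16 RNA-seq libraries of LNCaP, a human prostate cancer cell line that was grown from a metastasis in a lymph node and responds to androgens. They were taken by their symbols and are the claudin genes CLDN3, CLDN4 and CLDN7, the occludin gene OCLN, the junctional adhesion molecule gene F11R, the scaffold genes TJP1 and CGN, the adhesion gene EPCAM, and the epithelial splicing regulator genes ESRP1 and ESRP2. Of the 60676 gene IDs counted, these are 10, and all 10 were among the 21810 genes with enough counts to be tested. Parental cells (WT) and RB-p53 double knockout cells (DKO), the latter made with CRISPR-Cas9, received either 50 µM enzalutamide (EZ), an antagonist of the androgen receptor, or the same volume of the solvent DMSO for 6 days. The 4 groups were therefore WT DMSO, WT EZ, DKO DMSO and DKO EZ, with 4 libraries each. The labels do not say whether the DKO cells are a clone or a pool, and they name a single DKO line, so that a difference between DKO and WT cannot be told apart from a difference between these lines of cells.

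Tight junctions seal the space between neighbouring epithelial cells near their apical side. Claudins, occludin and junctional adhesion molecules span the membrane, and inside the cell the PDZ protein ZO-1, encoded by TJP1, and cingulin, encoded by CGN, tie them to actin and to signalling proteins. EPCAM is an adhesion protein of epithelial cells that associates with CLDN7. ESRP1 and ESRP2 are paralogous RNA-binding proteins that favour epithelial splice forms of many transcripts and are lost when epithelial cells take on mesenchymal traits. Gene-level counts measure how much RNA of each gene was sequenced, and they do not show which splice forms were present.

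Promoter sequences are given for OCLN, the member that rose with the drug, for TJP1, a scaffold gene that was lower in DKO cells under the drug, and for CLDN3, a claudin gene that passed no test. They come from RefSeq (GRCh38.p14), which had 11 promoter entries for 6 of the 10 genes. F11R, EPCAM, ESRP1 and ESRP2 had no entry. Each is read 5′ to 3′ on the gene's strand and ends at the base before a RefSeq transcription start. The OCLN stretch is chr5:69492660-69492789 on the plus strand, 130 bases that lie outside annotated exons. TJP1 is chr15:29969050-29969299 and CLDN3 is chr7:73770271-73770520, both on the minus strand and 250 bases long. Capitals mark the letters CACCTG, an E-box of the kind bound by SNAI and ZEB repressors, and GGGCGG, a GC box, on either strand.
OCLN: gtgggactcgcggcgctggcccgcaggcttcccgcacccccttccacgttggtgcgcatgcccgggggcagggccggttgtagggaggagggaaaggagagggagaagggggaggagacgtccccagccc
TJP1: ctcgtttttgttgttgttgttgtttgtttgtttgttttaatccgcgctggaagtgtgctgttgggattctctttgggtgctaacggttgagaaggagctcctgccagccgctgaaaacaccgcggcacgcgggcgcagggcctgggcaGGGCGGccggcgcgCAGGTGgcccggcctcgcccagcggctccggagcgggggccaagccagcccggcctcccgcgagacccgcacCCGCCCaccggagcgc
CLDN3: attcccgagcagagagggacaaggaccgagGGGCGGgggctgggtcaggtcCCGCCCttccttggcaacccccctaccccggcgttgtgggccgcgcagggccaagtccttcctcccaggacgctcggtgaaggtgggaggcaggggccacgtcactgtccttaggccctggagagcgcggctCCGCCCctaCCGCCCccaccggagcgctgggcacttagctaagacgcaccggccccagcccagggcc

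The OCLN stretch, shorter than the others at 130 bases against 250, held neither motif. The TJP1 stretch held an E-box and 2 GC boxes, and the CLDN3 stretch held 4 GC boxes and no E-box. Over the 250 bases upstream of all 35116 promoters, 17.5% held CACCTG on at least one strand and 42.6% held GGGCGG. Among the 11 windows of these genes the numbers were 4 and 8, the E-box windows belonging to CLDN7, OCLN (from another start) and TJP1. The GC box windows belonged to CGN, CLDN3, CLDN4, CLDN7, OCLN (outside the stretch printed above) and TJP1. The hormone response half-site AGAACA was found in 12.4% of all promoters and in 1 of the 11 windows, a TJP1 window. The E2F motif TTTNGCGC (1.51% of all promoters) and the grainyhead motif AACCNGTT (0.82%) were in none of the 11. These are matches of letters and not measured binding.

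The libraries held 11823438 to 47678648 counts, and the 10 genes had between them at least 184 counts (CLDN3) in every library. RB1 checked the genotype labels, with means of 115 (DMSO) and 112 (EZ) in WT and 10.6 and 11.7 in DKO, in CPM, the counts scaled to a common library size. Of 9 LNCaP and prostate luminal marker genes, none stayed below 1 CPM in every library, and all 5 leukocyte markers did, as did 3 of 4 basal markers. The summed fibroblast markers ranged from 15.3 to 22.3 CPM in WT and from 27.1 to 52.1 CPM in DKO libraries, while 5 of the 9 luminal markers were lower in DKO in each treatment, among them the androgen-regulated KLK3 (log2 −3.48 in DMSO and −4.07 in EZ) and TMPRSS2 (−3.22 and −3.10). The tested basal marker, KRT14, at most 1.47 CPM in any library, was lower in DKO in EZ (−3.17), and the endothelial marker VWF fell with the drug in WT, from a mean of 13.1 to 5.35 CPM (−1.29, edgeR adjusted p = 0.0265). The part of these markers in the differences below was not tested. Libraries stood apart in 2 ways. The share of counts taken by the structural RNA gene RN7SL1 was at least 0.22% in 6 libraries (replicate 1 of both WT groups and replicates 1 and 2 of both DKO groups) and at most 0.117% in the other 10. In each group, 1 library had a low mean log2 CPM over 20 mitosis genes: replicate 4 of WT DMSO at 3.56 (others 5.25 to 6.04), replicate 1 of WT EZ at 3.02 (5.11 to 5.19), replicate 4 of DKO DMSO at 5.20 (6.22 to 6.37) and replicate 1 of DKO EZ at 3.79 (5.22 to 5.70).

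All 10 genes were expressed in every group. Set per kilobase of exon, so that genes can be compared, the mean level in WT DMSO was highest for EPCAM (49.9 CPM per kb) and ESRP1 (40.9), followed by CLDN7 (36.3), TJP1 (35.6) and CLDN4 (30.8). Each of these 5 overlapped its neighbour in the order. A lower set held ESRP2 (16.7), F11R (16.2), CLDN3 (11.6), OCLN (10.3) and CGN (5.86 CPM per kb). The highest ESRP2 library (20.9) was below the lowest CLDN4 library (25.5), and the highest CGN library (7.73) was just below the lowest OCLN library (7.83). In WT EZ the mean of OCLN, at 22.2 CPM per kb, was above those of F11R (19.9), ESRP2 (16.1) and CLDN3 (14). In DKO EZ the mean of ESRP2, at 7.40 CPM per kb, was below every other member but CGN (4.68).

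**Figure D1:**
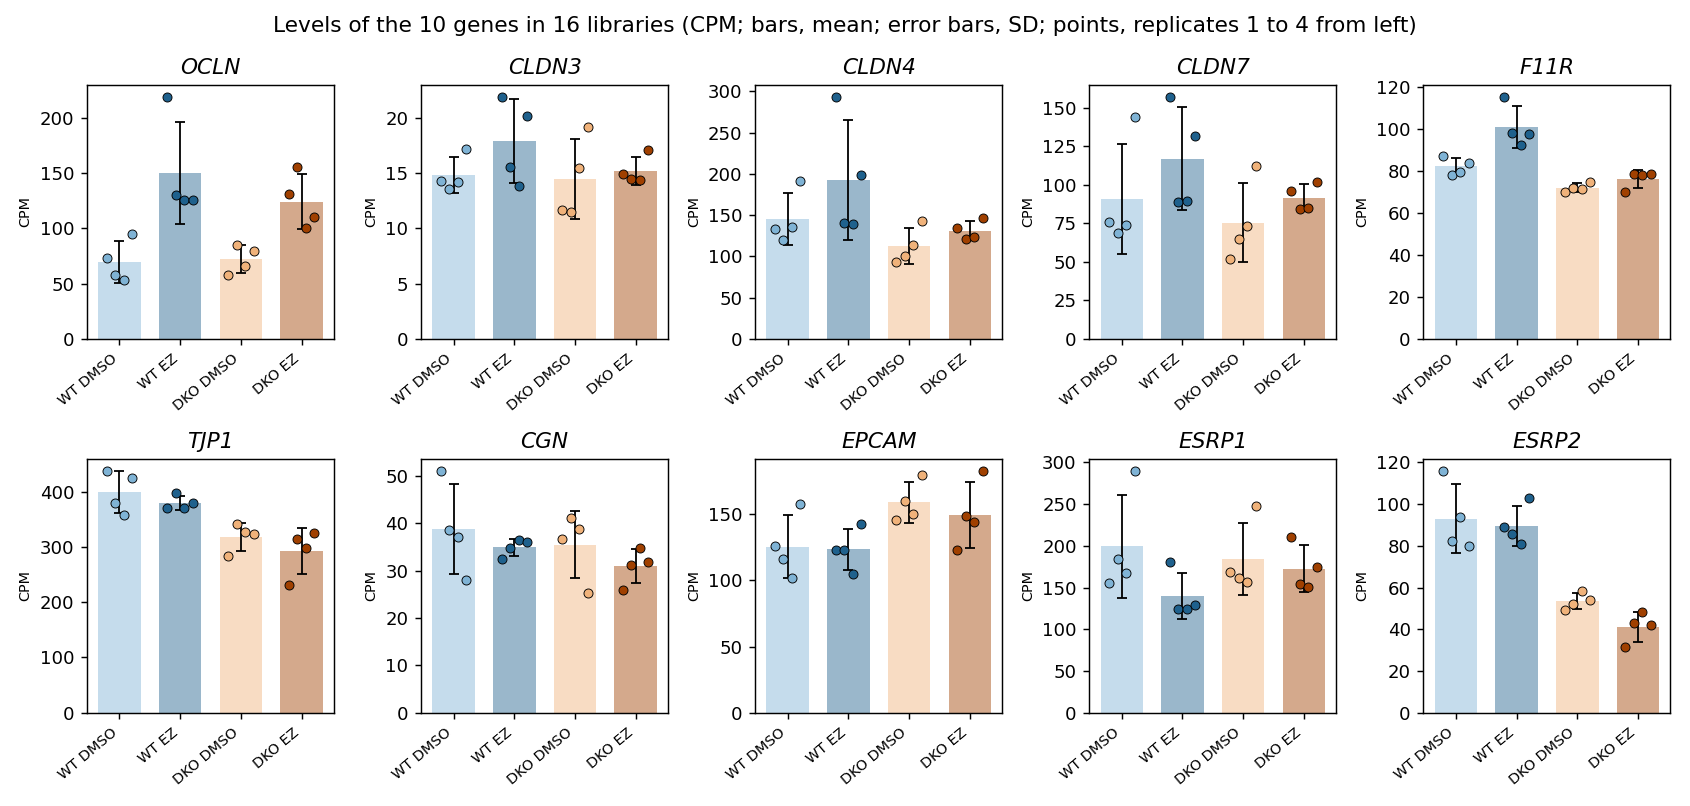
Levels of the 10 genes in CPM (scaled counts, vertical axes from 0) in WT and DKO LNCaP cells with DMSO or enzalutamide (EZ). Bars are means of 4 libraries, error bars are SD and points are replicates 1 to 4 from left to right; OCLN is higher in all 8 EZ libraries than in the DMSO libraries of the same genotype, and ESRP2 is lower in all 8 DKO than in all 8 WT libraries.

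OCLN encodes occludin, a membrane protein with MARVEL-domain topology that lies in tight junction strands (chromosome 5, 69492292 to 69558104, GRCh38). In WT cells its level was 73.4, 57.5, 52.9 and 94.8 CPM in DMSO replicates 1 to 4 and 219, 130, 126 and 126 CPM in EZ. In DKO cells it was 57.7, 85.2, 65.6 and 79.9 CPM in DMSO and 131, 156, 100 and 110 CPM in EZ. In both genotypes every EZ library was higher than every DMSO library. OCLN rose with the drug in WT by 1.11 ± 0.22 (SE) on the log2 scale, a 2.16-fold increase with an edgeR adjusted p of 0.009. It was the only one of the 10 genes to pass the threshold in that comparison, in which 3.32% of all tested genes passed (2.25% as higher) and 9.59% had groups without overlap. In DKO the difference was 0.78 ± 0.21, 1.72-fold, with an edgeR adjusted p of 0.0847, in a comparison where 1.48% of all tested genes passed, none of the 10 among them, and 9.61% had groups without overlap.

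The labels state no pairing. From correlations between these libraries, the replicate numbers were taken to pair the DMSO and EZ libraries within a genotype. With that pairing in the model the edgeR adjusted p of OCLN was 0.00408 in WT and 0.026 in DKO. The EZ library was 1.33 to 2.98 times its DMSO partner in the 4 WT pairs and 1.37 to 2.27 times in the 4 DKO pairs. Subtracting the WT effect from the DKO effect gave −0.33 on the log2 scale, with a 95% interval of −0.96 to 0.31 that includes no difference. Replicate 1 of WT EZ, the library with the lowest mitosis mean, stood far above the other 3, and without it the log2 change in WT was 0.88 (edgeR adjusted p = 0.0317) and the DKO change, at 0.78, passed with 0.049. In the 10 libraries with the lower RN7SL1 share the WT change was 0.89 (edgeR adjusted p = 0.0531) and the DKO change 0.54 (0.769), and in the other 6, where each WT group has a single library, they were 1.55 (0.202) and 0.96 (0.236). OCLN did not differ past the threshold between the genotypes, at 0.05 ± 0.21 in DMSO and −0.28 ± 0.21 in EZ. The near-identical pseudogene OCLNP1 held 2.27% of the counts of both genes.

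**Figure D2:**
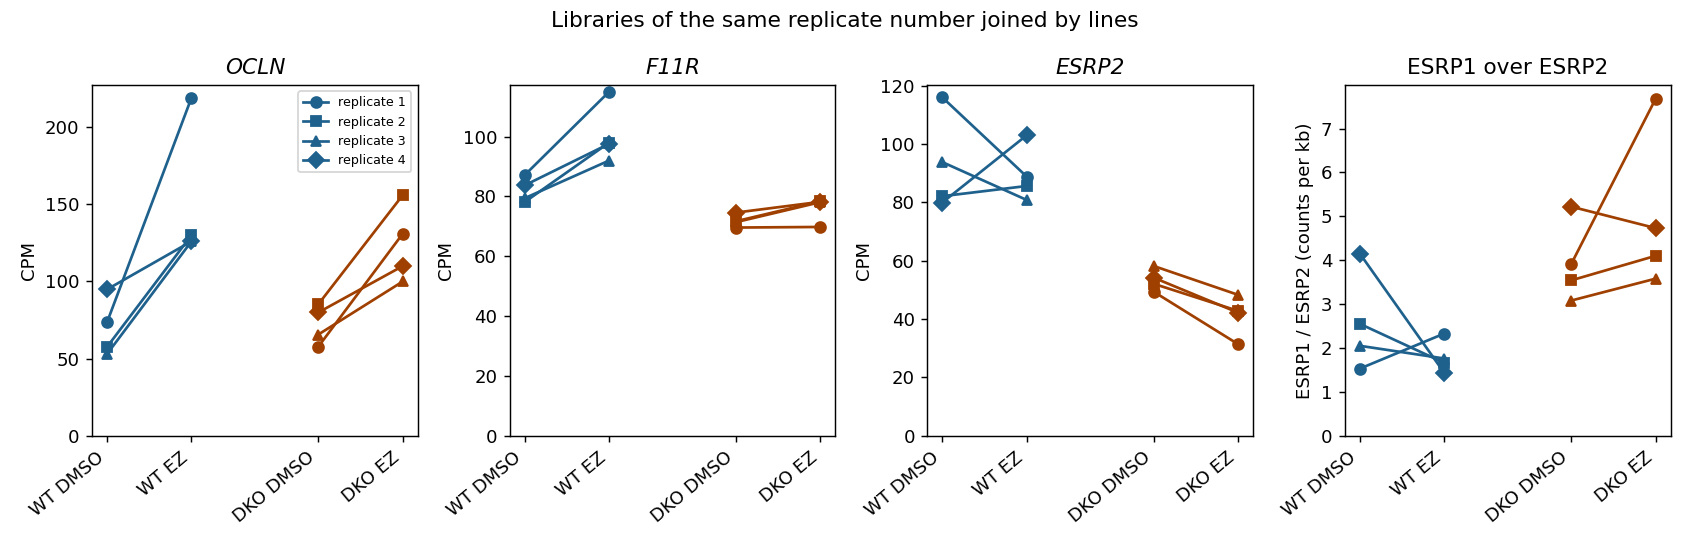
Levels of OCLN, F11R and ESRP2 in CPM, and the ratio of ESRP1 to ESRP2 counts per kb (all vertical axes from 0), with the DMSO and EZ libraries of the same replicate number joined by a line (blue, WT; brown, DKO). OCLN is higher in EZ in 8 of 8 pairs, F11R in 4 of 4 WT pairs (1.16 to 1.32 times) and 4 of 4 DKO pairs (1.00 to 1.09 times), and ESRP2 is lower in EZ in 4 of 4 DKO pairs.

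The claudin genes showed no change past the threshold in any comparison. CLDN3 and CLDN4 (both on chromosome 7) and CLDN7 (chromosome 17) encode membrane proteins whose extracellular loops set how tightly the strands seal. Across the DMSO and EZ libraries CLDN3 ranged from 13.6 to 17.2 and from 13.8 to 21.9 CPM in WT, and from 11.5 to 19.2 and from 14.4 to 17.1 CPM in DKO. In the same order CLDN4 ranged from 120 to 191, 139 to 293, 92.6 to 143 and 121 to 146 CPM, and CLDN7 from 68.6 to 144, 88.9 to 157, 51.7 to 112 and 84.2 to 102 CPM. All of these groups overlapped between DMSO and EZ and between genotypes. The log2 differences between EZ and DMSO were 0.27 ± 0.18, 0.41 ± 0.21 and 0.37 ± 0.26 for CLDN3, CLDN4 and CLDN7 in WT, and 0.07 ± 0.18, 0.22 ± 0.21 and 0.28 ± 0.26 in DKO. The 95% intervals in WT reached up to 0.65, 0.86 and 0.92, so increases of that size are not excluded by these libraries.

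The library with the lowest mitosis mean was the highest of its group for CLDN3, CLDN4 and CLDN7 in 3 of 4 groups each. In DKO EZ replicate 4 was the highest instead (17.1, 146 and 102 CPM). Replicate 4 of WT EZ, not a low-mitosis library, also stood above replicates 2 and 3. CLDN4 was 199 CPM there against 140 and 139, and CLDN7 132 against 88.9 and 89.6. The part of the mitosis means in these levels was not tested. In WT EZ, CLDN4 was 293 CPM in replicate 1 and 139 to 199 in the other 3, and without replicate 1 its log2 difference from DMSO was 0.16. Without replicate 4 of WT DMSO, the low-mitosis library of the other group, it was 0.61 (edgeR adjusted p = 0.129). For CLDN7 the same omissions gave 0.21 and 0.72 (edgeR adjusted p = 0.85 and 0.0912). Among these 3 claudin genes the largest difference between genotypes was also that of CLDN4 in EZ, at −0.56 ± 0.21 in DKO against WT (edgeR adjusted p = 0.0772). It was −0.28 without replicate 1 of WT EZ (edgeR adjusted p = 0.36) and passed without replicate 2 (−0.68, 0.0454) or replicate 3 (−0.69, 0.0346) of that group, so the call rests on which WT EZ libraries are used.

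F11R encodes JAM-A, an immunoglobulin-family adhesion molecule that helps to place polarity proteins at the junction (chromosome 1, 160995211 to 161021348). Its level in WT was 87.1, 78.1, 79.4 and 83.7 CPM in DMSO and 115, 98.0, 92.0 and 97.6 CPM in EZ. In DKO it was 69.6, 71.7, 71.4 and 74.6 CPM in DMSO and 69.8, 78.4, 78.1 and 78.2 CPM in EZ. All EZ libraries of WT were above all DMSO libraries of WT, and all DKO libraries were below all WT libraries of the same treatment. Groups without overlap were found for 9.59% of all tested genes with the drug in WT. Between the genotypes they were found for 21.7% in DMSO and 24% in EZ. With the drug F11R differed by 0.29 ± 0.09 in WT, with an edgeR adjusted p of 0.0843 without the pairing and 0.019 with it, and by 0.08 ± 0.09 in DKO (edgeR adjusted p = 0.785). The difference between these drug effects was −0.21, with a 95% interval of −0.47 to 0.06. In EZ, F11R was lower in DKO than in WT by 0.40 ± 0.09 on the log2 scale (log2 −0.40, edgeR adjusted p = 0.00366). In DMSO the difference was −0.19 ± 0.09 (edgeR adjusted p = 0.152).

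The F11R call between genotypes under EZ held when any single library was left out (edgeR adjusted p from 0.00537 to 0.0356) and not with scaling by library totals (log2 −0.15, adjusted p = 0.162). Scaling by library totals also moved the median of all tested genes in this comparison from −0.01 to 0.23. Relative to that median F11R was −0.39 under the main scaling and −0.38 under library totals, alike by construction. Without the low-mitosis libraries of both EZ groups the difference was −0.28 (edgeR adjusted p = 0.0771), and in the 10 libraries of lower RN7SL1 share it was −0.22 (0.246). Of the F11R exon bases, 1853 (36.6%) are shared with the gene model AL591806.3, which held 119 counts over the 16 libraries against 35430 for F11R.

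TJP1 encodes ZO-1, the scaffold that binds the tails of claudins and occludin (chromosome 15, 29699367 to 29968865). Its level in WT was 438, 379, 358 and 426 CPM in DMSO and 370, 398, 371 and 380 CPM in EZ. In DKO it was 283, 342, 328 and 323 CPM in DMSO and 232, 315, 298 and 326 CPM in EZ. Every DKO library was below every WT library of the same treatment, while DMSO and EZ overlapped within each genotype. Between the genotypes 21.7% of all tested genes had no overlap in DMSO and 24% in EZ. TJP1 was lower in DKO in EZ (log2 −0.37 ± 0.11, edgeR adjusted p = 0.0255) and differed by −0.33 ± 0.11 in DMSO (edgeR adjusted p = 0.052). The call under EZ was lost in 12 of the 16 fits that left out a single library, with an edgeR adjusted p of up to 0.126. It was kept only without replicate 1, 3 or 4 of WT DMSO or replicate 3 of WT EZ. Some omitted libraries lie outside this comparison, and each fit rescales all libraries. Without replicate 4 of DKO DMSO, TJP1 was −0.30, F11R −0.33 and ESRP2 −1.04 in EZ, so a lost call need not rest on the library left out. With library totals the difference was −0.14 (edgeR adjusted p = 0.375). Relative to the median of all genes it was −0.36 under either scaling, alike by construction. With the drug TJP1 differed by −0.08 ± 0.11 in WT and −0.12 ± 0.11 in DKO, and the 95% intervals of −0.32 to 0.16 and −0.36 to 0.12 bound the change in either direction.

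CGN, the least abundant of the 10 genes per kb, encodes cingulin, which binds ZO-1 and actomyosin. WT libraries ranged from 28.0 to 51.1 CPM with DMSO and 32.5 to 36.4 with EZ, and DKO libraries from 25.2 to 41.2 and 26 to 34.8 CPM. The groups overlapped in all 4 comparisons, and the log2 differences lay between −0.20 and −0.13. In contrast to the claudins, the library with the lowest mitosis mean was the highest of its group for CGN and TJP1 in 0 of 4 groups. The ratio of OCLN to TJP1 counts per kb was 0.246 to 0.371 in WT DMSO and 0.544 to 0.985 in WT EZ. In DKO it was 0.334 to 0.415 in DMSO and 0.560 to 0.943 in EZ. The RNA of the membrane protein was thus higher relative to that of its scaffold under EZ in both genotypes, without overlap between the treatments. The ratio of OCLN to CLDN4 did not overlap in WT (0.272 to 0.384 in DMSO and 0.442 to 0.647 in EZ). In DKO it overlapped (0.388 to 0.593 and 0.521 to 0.893).

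EPCAM (chromosome 2, 47345158 to 47387601) encodes the adhesion protein described above. WT libraries held 102 to 158 CPM with DMSO and 105 to 143 with EZ, and DKO libraries 146 to 180 and 123 to 183 CPM. The drug differences were −0.03 ± 0.14 in WT and −0.08 ± 0.14 in DKO. DKO against WT gave 0.34 ± 0.14 in DMSO (edgeR adjusted p = 0.118) and 0.28 ± 0.14 in EZ (edgeR adjusted p = 0.19), and the groups overlapped. With library totals EPCAM passed as higher in DKO in both treatments (log2 0.56, adjusted p = 0.00115, and 0.52, adjusted p = 0.00174), and with upper-quartile scaling too (0.41, 0.00633, and 0.39, 0.00851). Relative to the median of all genes it was 0.40 in DMSO and 0.29 in EZ under the main scaling, and 0.41 and 0.29 under library totals, alike by construction. In DMSO EPCAM also passed without replicate 4 of WT DMSO (0.51, edgeR adjusted p = 0.0254) or replicate 4 of DKO EZ (0.41, 0.0417). The latter library is outside this comparison and enters it only through the shared scaling and spread.

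ESRP2, on chromosome 16 (68229111 to 68238102), showed the largest difference between genotypes among the 10 genes. Its level in WT was 116, 82.1, 93.8 and 79.9 CPM in DMSO and 88.8, 85.6, 80.8 and 103 CPM in EZ. In DKO it was 49.4, 52.1, 58.2 and 54.2 CPM in DMSO and 31.4, 42.8, 48.3 and 42.2 CPM in EZ. The lowest WT library was above the highest DKO library across both treatments. ESRP2 was lower in DKO, 1.74-fold with DMSO (log2 −0.80 ± 0.14, edgeR adjusted p = 6.29e-04) and 2.17-fold with EZ (log2 −1.12 ± 0.14, edgeR adjusted p = 2.44e-05). With DMSO it was the only one of the 10 genes past the threshold, where 18.6% of all tested genes passed (9.7% as lower) and 21.7% had groups without overlap. In EZ it passed with F11R and TJP1, 3 of 10, where 20.7% of all tested genes passed (11.4% as lower) and 24% had groups without overlap, so the share of these genes that passed under EZ is near that of all genes.

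Both ESRP2 calls held when any single library was left out, with edgeR adjusted p from 5.68e-04 to 0.00569 in DMSO and from 1.83e-05 to 2.52e-04 in EZ. With library totals ESRP2 was −0.59 (adjusted p = 0.00628) and −0.87 (3.04e-04). In the 10 libraries of lower RN7SL1 share the differences were −0.54 (edgeR adjusted p = 0.0375) and −0.91 (0.00274), and in the other 6 they were −1.16 (0.0517) and −1.25 (0.0302). With the drug ESRP2 differed by −0.05 ± 0.14 in WT and −0.38 ± 0.14 in DKO (edgeR adjusted p = 0.221, and 0.0575 with the pairing). In DKO every EZ library was below every DMSO library, at 0.64 to 0.83 of its DMSO partner. There 9.61% of all tested genes had groups without overlap. In WT 2 of 4 pairs were higher in EZ. The difference between the drug effects was −0.32, with a 95% interval of −0.74 to 0.09. ESRP2 shares 149 exon bases with NFATC3 on the opposite strand, 2.68% of its exons, and the strand setting of the counting is not given in the sources used here.

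ESRP1, on chromosome 8, is the paralog of ESRP2 and did not show the same difference. Its level in WT was 155, 184, 168 and 290 CPM in DMSO and 181, 124, 124 and 129 CPM in EZ. In DKO it was 169, 162, 157 and 248 CPM in DMSO and 211, 154, 151 and 175 CPM in EZ. In each of the 4 groups the highest ESRP1 library was the one with the lowest mitosis mean, and the part of that in the values was not tested. DKO against WT gave −0.12 ± 0.20 with DMSO and 0.31 ± 0.20 with EZ (edgeR adjusted p = 0.325), the latter 0.56 with library totals (adjusted p = 0.0208). With the drug ESRP1 differed by −0.51 ± 0.20 in WT (edgeR adjusted p = 0.203), by −0.25 without replicate 4 of WT DMSO, and by −0.09 ± 0.20 in DKO.

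Per kilobase, ESRP1 RNA exceeded ESRP2 RNA in all 16 libraries. The ratio was 1.53, 2.55, 2.05 and 4.15 in WT DMSO and 2.33, 1.66, 1.76 and 1.43 in WT EZ. It was 3.91, 3.54, 3.08 and 5.22 in DKO DMSO and 7.68, 4.10, 3.58 and 4.73 in DKO EZ. The genotypes overlapped in DMSO through replicate 4 of WT and did not overlap in EZ, where the highest ratio was that of the DKO library with the lowest mitosis mean. The ratio uses 2 genes of the same library and is therefore free of library scaling.

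**Figure D3:**
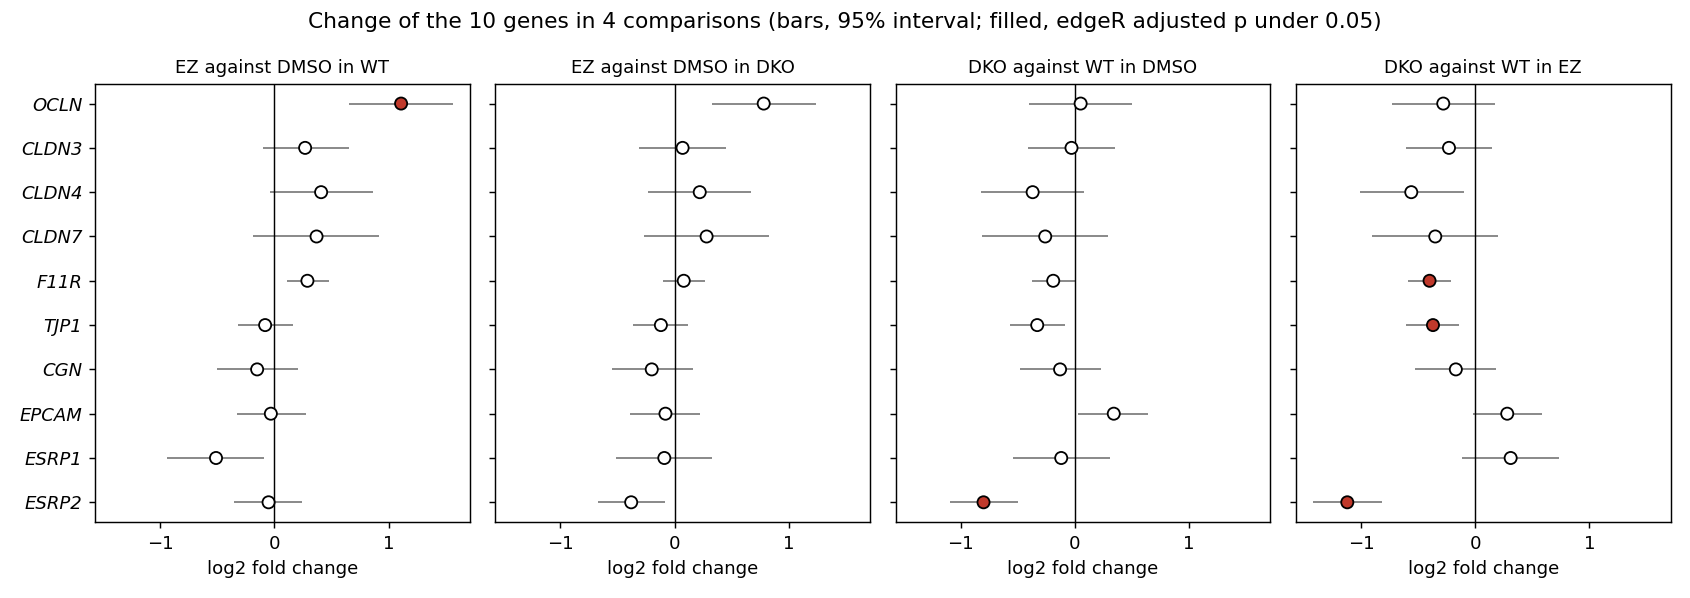
Log2 fold change of each of the 10 genes (horizontal axes) in the 4 comparisons, with 95% intervals from the edgeR model of 16 libraries; filled points passed an adjusted p of 0.05. OCLN passed for EZ against DMSO in WT (1.11), ESRP2 for DKO against WT in DMSO (−0.80) and in EZ (−1.12), and F11R (−0.40) and TJP1 (−0.37) for DKO against WT in EZ.

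The median log2 change of the 10 genes was 0.12 with the drug in WT, −0.01 with the drug in DKO, −0.16 for DKO against WT in DMSO and −0.31 for DKO against WT in EZ. The medians of all tested genes were −0.03, 0.01, −0.06 and −0.01. In DKO against WT in EZ, the comparison with the lowest median of the 10 genes, 3 of the 10 were lower and 0 higher past the threshold. Of all tested genes 11.4% passed as lower there. These directions depended on the scaling, with 1 lower and 2 higher under library totals and 3 lower and 1 higher under upper-quartile scaling. For the difference between the drug effects of the genotypes, 0 of the 10 genes and 0 of 21810 tested genes (0%) passed in edgeR, where 648 genes had an unadjusted p under 0.05, and DESeq2 called 10 genes. Each drug comparison shares a group of libraries with each genotype comparison, and such comparisons are not independent of each other.

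Other genes of the junction were read from lists of related genes, whose counts stand beside 3.32% and 1.48% of all tested genes past the threshold with the drug in WT and DKO, and 18.6% and 20.7% for DKO against WT in DMSO and EZ. With the drug in WT, none of 10 tested further claudin genes passed, 1 of 9 further membrane protein genes rose and 3 of 20 scaffold and polarity genes rose. The membrane gene was MARVELD2, which encodes tricellulin, the occludin relative of junctions between 3 cells. Its mean went from 175 CPM with DMSO to 266 CPM with the drug (log2 0.60 ± 0.14, edgeR adjusted p = 0.0274). The MARVELD2 call was lost in 5 of the 16 fits that left out a single library. The scaffold genes were AMOT (0.49 ± 0.11) and AMOTL1 (2.62 ± 0.42), which encode angiomotins, and PALS1, a polarity gene of the Crumbs complex (0.45, named after its value was seen). AMOTL1 went from a mean of 6.00 CPM to 37.2 CPM (edgeR adjusted p = 0.00314). In DKO the scaffold genes that rose were PALS1 (0.55 ± 0.12) and AMOTL1 (1.89 ± 0.41, from 6.19 to 23.0 CPM), 2 of 20, with none among the 10 claudin and 9 membrane protein genes. With the replicate pairing in the model, 6 scaffold genes rose in WT and 3 in DKO, and 2 further claudin genes fell in WT and 1 in DKO. In DKO 2 membrane protein genes rose and 1 fell. The shares above are not those of the paired fit, in which more of all tested genes passed. These were 2641 in WT and 1691 in DKO, against 724 and 322 without the pairing.

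For DKO against WT the directions in these lists depended on the scaling. Library totals, which moved the median of all genes from −0.06 to 0.14 in DMSO and from −0.01 to 0.23 in EZ, gave no lower call among the further claudins (2 higher in DMSO and 4 in EZ), the membrane proteins (4 and 4) or the scaffold and polarity genes (5 and 8). The values that follow are from the TMM scaling. Among 10 tested further claudin genes CLDN12 was lower in DMSO (log2 −1.13 ± 0.35), and CLDN10 was listed at 0 in all 8 WT libraries and at 0.0295 to 0.773 CPM in DKO libraries, a low level named after its values were seen. In EZ, 3 of 10 were higher, CLDN1 (1.06 ± 0.36), CLDN10 and CLDN9 (1.18), the last named after its value was seen. CLDN1 and CLDN9 were low too, at means of 0.58 and 0.296 CPM in WT EZ and 1.21 and 0.645 CPM in DKO EZ. Without the 2 low-mitosis EZ libraries CLDN1 was 0.74 (edgeR adjusted p = 0.226). JAM3, a relative of F11R, was higher in DKO in DMSO (0.96 ± 0.18) and in EZ (0.59 ± 0.18), and BVES, a membrane protein gene of junctions, in EZ (0.88 ± 0.22). Of 20 scaffold and polarity genes 4 were higher and 1 lower in DMSO, and 2 were higher and 3 lower in EZ. AMOTL2 was higher in both (1.14 ± 0.24 and 1.23 ± 0.24), TJP3, the ZO-3 gene, in DMSO (0.59 ± 0.15), and CGNL1, the paralog of CGN (−0.43 ± 0.11), and SYMPK, which encodes symplekin (−0.46 ± 0.10), were lower in EZ. ARHGEF2, whose product is held at junctions by cingulin, was higher in EZ, at a mean of 111 CPM against 46.4 in WT (1.26 ± 0.36).

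Of 9 tested genes on the list of partners and proteases of EPCAM, 3 were higher and 2 lower in DKO in each treatment. With library totals 4 were higher and 1 lower. Of all tested genes 18.6% passed in DMSO and 20.7% in EZ. None of the 9 passed with the drug in either genotype. The pairing gave 5 higher in WT, and 1 higher and 1 lower in DKO, in a fit where 2641 and 1691 of all genes passed. TSPAN8, a tetraspanin gene, was higher, from a mean of 0.127 CPM in WT DMSO to 2.44 in DKO DMSO (4.32 ± 0.53) and from 0.101 to 1.25 in EZ (3.62 ± 0.54). BACE2, an aspartic protease gene, was higher (1.99 ± 0.39 and 1.68 ± 0.38). SPINT1, an inhibitor of the matriptase protease that cleaves EPCAM, was lower (−0.54 ± 0.15 and −0.56 ± 0.15), and so was PSEN2, a subunit of the gamma-secretase that cuts EPCAM in the membrane (−0.58 ± 0.13 and −0.89 ± 0.13).

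Of 11 tested genes whose transcripts the ESRP proteins are known to splice, 2 were lower in DKO in DMSO, and 1 was higher and 1 lower in EZ, a share near that of all tested genes. With library totals the calls were 1 higher in DMSO and 3 higher in EZ, with none lower. ARHGAP17 rose with the drug in WT (0.44 ± 0.11, and 0.37 with an edgeR adjusted p of 0.0668 under library totals) and none passed in DKO. With the pairing 3 of the 11 were higher in DKO, in a fit where 1691 of all genes passed in DKO. In DKO against WT, ARHGEF11 was lower in both treatments (−0.40 ± 0.09 and −0.32 ± 0.09), NUMB was lower in DMSO (−0.30 ± 0.09), and ITGA6, an integrin subunit gene, was higher in EZ (0.84 ± 0.15, means of 184 and 103 CPM). Among other splicing regulators of epithelial and mesenchymal states MBNL2, a muscleblind gene, was at 3.07 to 7.06 CPM in WT DMSO and 0.0494 to 0.318 CPM in DKO DMSO (log2 −4.62 ± 0.48, edgeR adjusted p = 3.01e-06), and was lower in EZ too (log2 −5.24 ± 0.54). QKI, the quaking gene, which favours mesenchymal splice forms, was lower in DKO in both (−0.76 ± 0.16 and −0.76 ± 0.16). Of 13 tested regulators in this list, 1 was higher and 2 lower in DMSO, and 1 higher and 3 lower in EZ, against 2 and 2, and 3 and 2, with library totals, and none passed with the drug.

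Transcription factors that promote epithelial genes changed in both directions. GRHL2, a grainyhead factor known to activate claudin genes and ESRP1, rose with the drug in WT from a mean of 260 to 403 CPM (0.63 ± 0.11, edgeR adjusted p = 0.00344) and in DKO from 224 to 337 CPM (0.59 ± 0.11, edgeR adjusted p = 0.011). The DKO call of GRHL2 was lost in 3 of the 16 fits that left out a single library. It was also lost without the 2 low-mitosis EZ libraries (0.50, edgeR adjusted p = 0.0533) and in the 10 libraries of lower RN7SL1 share (0.56, 0.295). EHF, an ETS factor of epithelia, was lower in every comparison. WT cells held a mean of 719 CPM with DMSO and 424 with EZ, and DKO cells 190 and 84.3 CPM. The log2 changes of EHF were −0.76 ± 0.12 and −1.17 ± 0.12 with the drug, and −1.92 ± 0.12 and −2.33 ± 0.13 in DKO. EHF and GRHL2 were the only 2 of 12 tested genes of this list to pass with the drug in either genotype, and in DKO against WT 3 were higher and 1 lower in DMSO, and 1 was higher and 1 lower in EZ, against 6 and 1, and 5 and 1, with library totals.

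KLF4 was higher in DKO in both treatments (1.43 ± 0.35 and 1.25 ± 0.35). Of 5 tested repressors of epithelial genes, SNAI2, which encodes SLUG, was higher in DKO in DMSO (1.54 ± 0.43) and EZ (1.34 ± 0.43), at means of 2.27 and 2.38 CPM. In DMSO the groups overlapped, at 0.348 to 1.36 CPM in WT and 1.23 to 4.79 CPM in DKO, where replicate 1 was the highest. In EZ they did not, at 0.85 to 0.997 and 2.09 to 2.83 CPM, as was so for 24% of all tested genes. Leaving out single libraries lost the SNAI2 call in 3 of 16 fits in DMSO and 6 in EZ. Without the low-mitosis EZ libraries the difference in EZ was 1.38 (edgeR adjusted p = 0.0919). ZEB1 passed as higher in EZ (1.65 ± 0.51, edgeR adjusted p = 0.0282) at 0.62 to 1.2 CPM in DKO EZ and 0.139 to 0.398 CPM in WT EZ, and is named after its values were seen. None of these repressors passed with the drug in either genotype. Of 47 calls of named list genes in the 4 comparisons, 0 changed sign under any alternative, 21 were lost without at least 1 single library, 10 with library totals and 19 in the 10 libraries of lower RN7SL1 share. The single libraries left out include those outside a comparison, whose omission also shifts the scaling and the spread. The call of NUMB in DMSO was lost whichever of the 16 libraries was left out, and that of PALS1 in DMSO with 15 of 16. That of ARHGEF11 in EZ was lost with 11 and that of PALS1 with the drug in DKO with 9. Those of CLDN12 in DMSO and AMOTL1 with the drug in DKO were lost with 7. CLDN1 and SNAI2 in EZ and ARHGAP17 with the drug in WT lost theirs with 6. The calls of EHF, MBNL2, QKI, JAM3 in DMSO, AMOTL2, TSPAN8, BACE2 and ITGA6 were kept without each library.

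**Figure D4:**
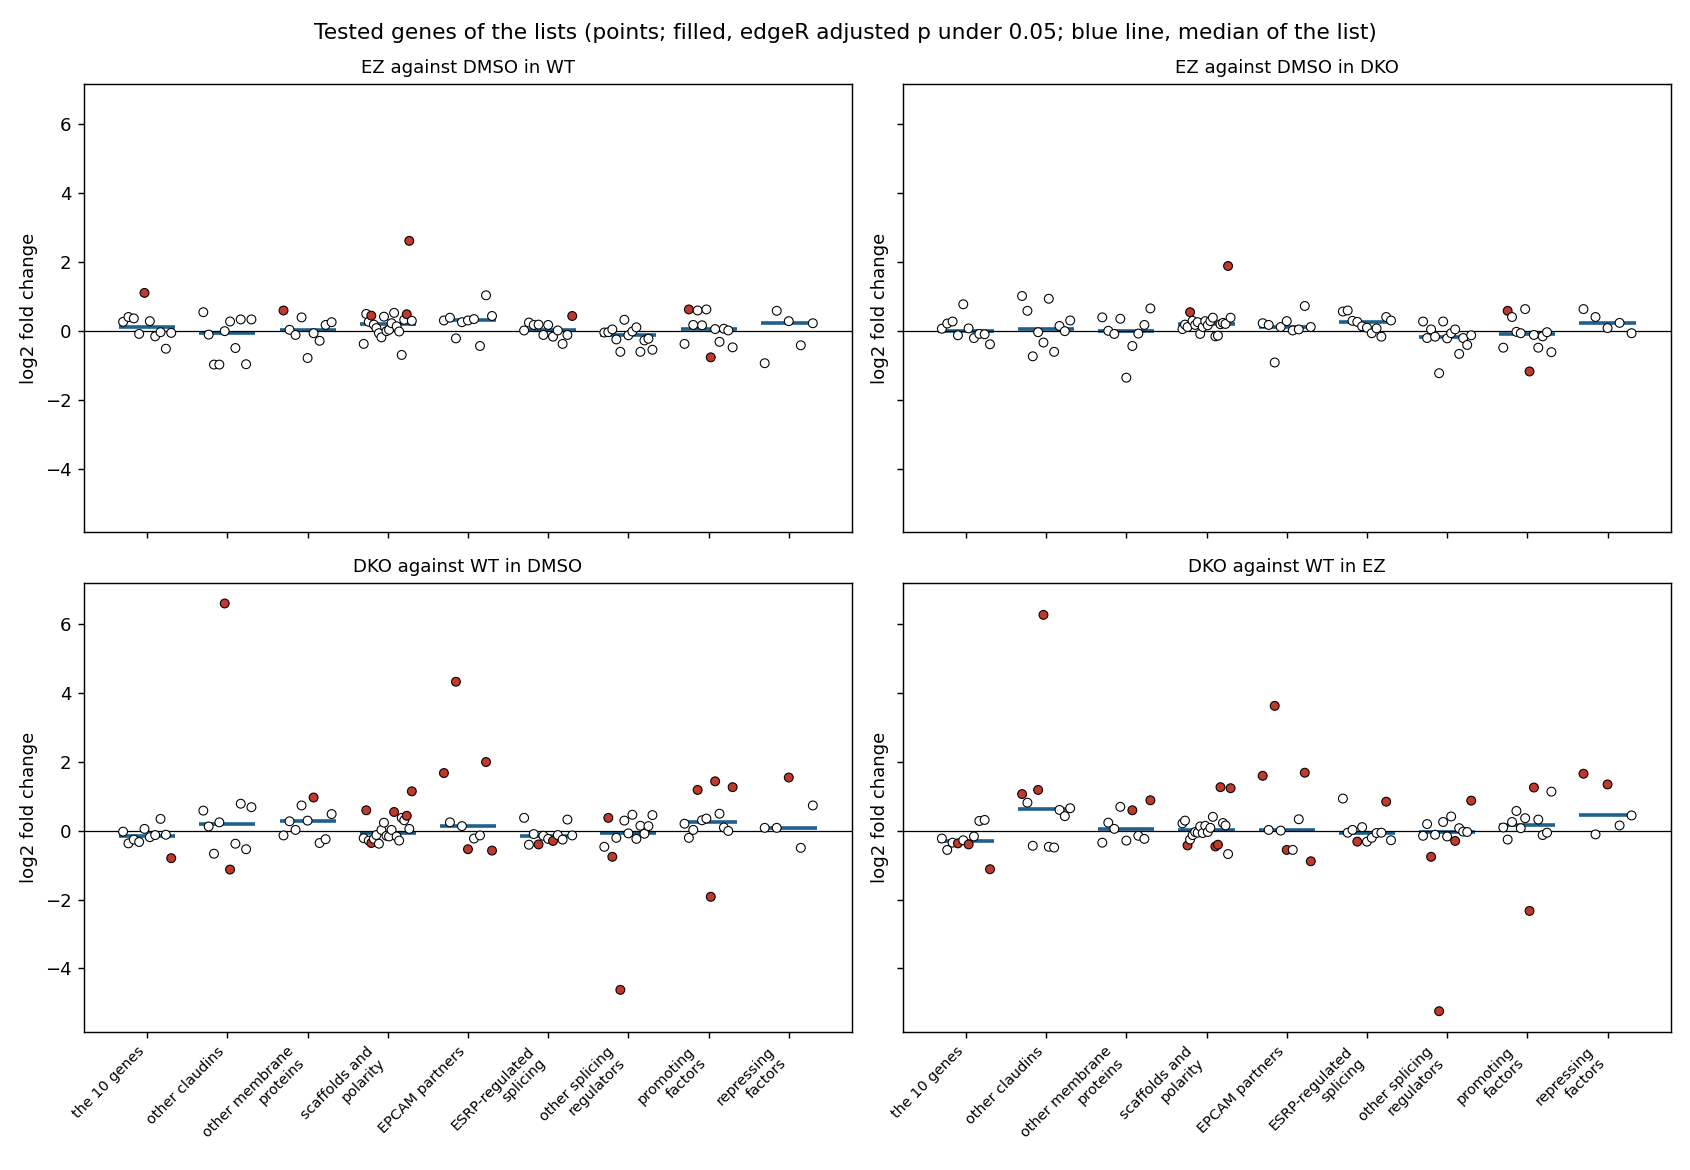
Log2 fold change (vertical axes) of every tested gene in the 10-gene set and 8 lists of related genes, in the 4 comparisons; each point is a gene, filled points passed an edgeR adjusted p of 0.05 and blue lines are list medians. Wide changes between genotypes include MBNL2 at −4.62 and −5.24 among other splicing regulators and EHF at −1.92 and −2.33 among promoting factors; the top claudin point is CLDN10, listed at 0 in WT, whose fitted value does not measure a size.

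Outside the set, the protein-coding gene with the pattern most like each member was sought among 10670 genes with a mean of at least 5 CPM, as the smallest root mean square (RMS) difference of centred log2 CPM over the 16 libraries. For OCLN this was PTGR1, at an RMS difference of 0.245 against an own spread of OCLN of 0.56. For ESRP2 it was SRM (0.137 against 0.528), for F11R NEU3 (0.0529 against 0.198) and for TJP1 FITM2 (0.0732 against 0.225). For ESRP1 it was ZFAND1 (0.107 against 0.323). Members were left out of the search, and the likeness is a description of these 16 libraries.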

How the data were processed

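Gene expression was measured by RNA-seq of ribosomal RNA-depleted total RNA, per the labels. The authors deposited whole-number read counts per Ensembl gene ID, 1 file per library. STAR 2.7.3a and GRCh38 are named in the submitters' processing notes, the counting tool, its strand setting and the annotation being not given in the sources used here, so that reads of overlapping or antisense genes cannot be told apart. Symbols were matched for 60357 of 60676 IDs, and coordinates are those of GENCODE 29 (58503 IDs).

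Tests were run in R 4.3.3 with edgeR 4.0.16. The filter filterByExpr (minimum count 10, minimum total 15) kept 21810 genes. Libraries were scaled by TMM, which is also the base of CPM. The quasi-likelihood test with robust dispersion used 1 mean per group over 16 libraries, with Benjamini-Hochberg adjustment over all tested genes and a threshold of 0.05. Groups and replicate numbers came from the titles. The biological coefficient of variation was 28%. Nothing in the labels says whether replicates were grown as separate cultures, and p-values reflect only how far these libraries vary, which may be technical. The pipeline was tested on simulated data.

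Deviations from group means of same-numbered DMSO and EZ libraries correlated at 0.326 to 0.6245 in WT and 0.4034 to 0.6638 in DKO, all over 0.1, and 7 of 8 pairs were most alike with their own number. The numbers were therefore taken to pair the drug comparisons within a genotype. Between genotypes not every pair passed that limit.

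The members and lists were chosen with earlier results of these data known. Named were all 10 members, RB1, the nearest gene of each member, and per list and comparison the 2 highest and 2 lowest log2 changes past the threshold with at least 1 CPM in the higher group; some genes are not reported here. Alternatives were RLE, upper-quartile and library-total scaling, no filter, DESeq2 1.42.0, the replicate block, a term for the RN7SL1 set, leaving out 2 low-mitosis EZ libraries, and leaving out each library. Fits to the 10 libraries of lower and the 6 of higher RN7SL1 share were added after seeing the data.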

Additional observations from a re-analysis of the deposited data

Results flagged for a closer look

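In each of 40 sets of 4 libraries (10 genes in 4 groups) the gap between the extreme library and its nearest neighbour was set against the whole range of the set by Dixon's test, which chance passes in about 1 of 20 sets. A library stood apart in 6 sets. OCLN was 219 CPM in replicate 1 of WT EZ and 126 to 130 in the others. ESRP1 was 181 CPM in the same library and 124 to 129 in the others, and 248 CPM in replicate 4 of DKO DMSO against 157 to 169. CLDN7 was 144 CPM in replicate 4 of WT DMSO and 68.6 to 76.0 in the others. F11R was 69.8 CPM in replicate 1 of DKO EZ and 78.1 to 78.4 in the others. CLDN3 was 17.1 CPM in replicate 4 of DKO EZ and 14.4 to 14.9 in the others. In 5 of these 6 sets the library is the one with the lowest mitosis mean of its group, and the part of that in the values was not tested.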

How the results depend on the processing

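Of 1330 values under alternatives, 1214 kept their direction and side of the threshold, 25 lost it, 22 gained it and 69 changed sign. The number of the 10 genes past the threshold for EZ against DMSO in WT was 1, and 2 with DESeq2 and with either replicate block, and 0 in either RN7SL1 set alone. In DKO it was 0, and 1 with library totals, DESeq2, the replicate block within genotype or the RN7SL1 term (OCLN in each). For DKO against WT in DMSO it was 1, and 2 with upper-quartile scaling or library totals, 3 with the replicate block (adding TJP1 at 0.0275 and EPCAM at 0.0101, both edgeR adjusted p) and 0 in the 6 libraries of higher RN7SL1 share. In EZ it was 3, all lower, and 5 with the replicate block (adding CLDN4 and EPCAM). It was 1 without the filter, without the 2 low-mitosis EZ libraries and in the 10 libraries of lower RN7SL1 share. Upper-quartile scaling gave 4 in EZ, 3 lower and 1 higher (EPCAM). Library totals also gave 3 in EZ, but with other genes and directions: EPCAM and ESRP1 were higher and ESRP2 was lower. Leaving out single libraries gave 1 to 1, 0 to 1, 1 to 2 and 2 to 4.

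All genes past the threshold numbered 724 in WT and 322 in DKO with the drug, and 436 and 167 without the filter, 1239 and 806 with DESeq2, 1724 and 1104 with the replicate block, 2641 and 1691 with the block within genotype, 371 and 13 in the 10 libraries and 0 and 0 in the 6 (where each WT group is 1 library, assumed to vary like DKO), and 519 in DKO with the RN7SL1 term. For DKO against WT, 4058 and 4508 genes became 2548 and 2539 in the 10 libraries and 386 and 869 in the 6. For the difference of drug effects 0 became 10 with DESeq2, 1 with the replicate block and 39 with the block within genotype. Leaving out single libraries gave 304 to 1051, 73 to 451, 2957 to 4167, 3270 to 4776 and 0 to 0. With library totals 76.3% and 77% of the genotype calls in DMSO and EZ were higher in DKO, against 47.9% and 45% with TMM, and 55.3% of the WT drug calls were higher, against 67.8%. With upper-quartile scaling the share in EZ was 58.1% and that of the WT drug calls 56.1%.

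Signs changed only for differences that did not pass. With the drug in WT, the 10 libraries gave CGN 0.04 and ESRP2 0.07, and the 6 gave ESRP1 0.20. In DKO, the 10 gave CLDN3 −0.13 and CGN 0.06, and the 6 gave ESRP1 0.09. For DKO against WT in DMSO, CLDN3 was 0.03 with upper-quartile scaling, 0.18 with library totals and 0.02 without the filter. It was 0.00 without the low-mitosis EZ libraries, which lie outside this comparison, and 0.27 in the 10. CLDN7 was 0.02 in the 10. OCLN was −0.02 with the RN7SL1 term and −0.01 in the 6. With library totals F11R was 0.02, CGN 0.08 and ESRP1 0.10, and ESRP1 was 0.12 in the 6. In EZ, library totals gave CLDN3 0.02 and CGN 0.07, and the 10 gave CLDN3 0.00. For the difference of drug effects, CLDN4 was 0.05, CLDN7 0.04 and TJP1 0.02 without the low-mitosis EZ libraries, the DMSO ones being kept. For the same difference, CGN was 0.02 and EPCAM 0.03 in the 10, and TJP1 0.03, CGN 0.18 and ESRP1 −0.10 in the 6.

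Leaving out single libraries, the ranges that crossed 0 were CGN −0.25 to 0.05, EPCAM −0.11 to 0.13 and ESRP2 −0.13 to 0.11 for the drug in WT, and CLDN3 −0.03 to 0.22 and ESRP1 −0.21 to 0.07 in DKO. For DKO against WT in DMSO they were CLDN3 −0.11 to 0.13, CLDN7 −0.43 to 0.10, OCLN −0.05 to 0.28, CGN −0.21 to 0.10 and ESRP1 −0.21 to 0.17. For the difference of drug effects they were CLDN4 −0.39 to 0.06, CLDN7 −0.44 to 0.15, TJP1 −0.13 to 0.03, CGN −0.25 to 0.05 and EPCAM −0.22 to 0.02. The cause of these changes was not tested.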
